A study of Mus musculus with 2 samples.

Results

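The mitotic-phase cells of a culture that survived by alternative lengthening of telomeres (ALT) were described from single-cell RNA sequencing. ALT is a way of keeping telomeres by recombination, without telomerase. The culture was an E14 mouse embryonic stem cell line, DKO741, in which both alleles of Terc, the RNA template of telomerase, had been knocked out. The line was kept on mouse embryonic fibroblast feeders, but the cells taken for experiments were free of feeders. Transcripts were counted in droplets by inDrops, with a molecular barcode (UMI) for every molecule caught. PD800 cells, given as passage 800 in the labels, were survivors that used ALT, and PD100 cells of the same line, given as passage 100, preceded ALT. PD stands for population doubling. Cells of both time points lacked Terc, and each time point was 1 library of 1 line, so that library, passage and ALT cannot be told apart. No test was possible, and every interval given is a 95% interval for counting error only.

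A score was computed for each PD800 cell as the share of its UMIs in 12 genes, Cdk1, Ccnb1, Ccnb2, Top2a, Cenpe, Cenpf, Aurka, Plk1, Ube2c, Cdc20, Tpx2 and Hmmr. Barcodes needed at least 1000 UMIs and at most 20% of UMIs in mitochondrial genes, which left 900 of 1666 barcodes. The 20% of these cells with the highest score, 180 cells, were called mitotic-phase cells. They were compared with cells in which none of the 12 genes had a UMI. There were 38 such score-0 cells, and each was paired with a mitotic-phase cell of nearly the same total, the largest gap being 3.72% of UMIs. The cells were thus chosen by their UMIs in the 12 genes, which are no result.

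In the textbook account, a cell enters mitosis when Cdk1 bound to cyclin B becomes active, condenses its chromosomes and builds a spindle. The spindle checkpoint holds the cell until every kinetochore is attached, and the anaphase-promoting complex with Cdc20 then marks cyclin B and securin for destruction. Many genes of G2 and mitosis are transcribed together late in the cycle, through Foxm1, B-Myb and the MuvB complex, which binds promoter elements such as TTTGAA, and through NF-Y, which binds CCAAT. Embryonic stem cells cycle fast, with a short G1 phase.

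The score formed a continuum, and the 180 cells were its upper range. The median score was 0.221% over all cells and 0.432% in the mitotic-phase cells, and the highest was 0.927%. The last cell inside the threshold had 20 of 5872 UMIs in the 12 genes (0.3406%), and the first outside had 15 of 4406 (0.3404%). There were 102 cells within 10% of the threshold, 41 inside and 61 outside. A mitotic-phase cell had between 4 and 40 UMIs of the 12 genes, with a median of 12, and its Poisson interval lay above the share of the whole library, 0.241%, in 74 of 180 cells. Of the 38 score-0 cells, 22 had an interval below that share. Depth differed with the score, since the score-0 cells had a median of 1678.5 UMIs (1000 to 3505), against 2643.5 (1001 to 8770) in the mitotic-phase cells and 2707.5 in the 720 other cells.

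Terc, the deleted gene, had 0 UMIs in all 900 cells, a weak check because its RNA lacks a poly(A) tail. All 9 embryonic stem cell markers, Pou5f1 and Sox2 among them, had UMIs in the mitotic-phase cells, and each of the 180 cells had at least 2 UMIs of them. Together these markers took 1.31% of UMIs in the mitotic-phase cells and 1.25% in the 720 others. Markers of extraembryonic endoderm took 0.0195% and 0.0146%. Gata6, Sox17, Srgn, Foxa2, Pdgfra and Cubn were at 0 in the mitotic-phase cells, and Gata4, Gata6, Sox7 and Srgn in the others. Markers of feeder fibroblasts took 0.00284% and 0.00313%. Of these, Col5a1, Dcn and Postn were at 0 in the mitotic-phase cells, and Col1a1 and Dcn in the others. Scrublet, which looks for droplets with 2 cells, called 8 of the 900 cells (0.889%), of which 2 were mitotic-phase cells and 0 were score-0 cells. Of the kept cells, 8 had a barcode name that also occurred among kept PD100 cells, 1 of them a mitotic-phase cell.

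Mitosis genes outside the rule were higher in the mitotic-phase cells, led by the Cdk-binding proteins Cks2 and Cks1b, the microtubule protein relative Hn1 and the centromere protein Cenpm. They were taken from 5 lists of 118 genes: spindle and cytokinesis, kinetochore and checkpoint, mitotic kinases and the passenger complex, cyclins with degradation and transcription of G2/M, and chromosome structure. Over the 38 pairs, the 118 genes together had 1194 UMIs in the mitotic-phase cells and 826 in the score-0 cells, which was 1.83% and 1.26% of the UMIs outside the 12 genes. The log2 ratio of these shares was 0.54 (0.41 to 0.67). The pairs held 65211 and 65421 UMIs outside the 12 genes, so ratios were described only for the 490 genes with 50 or more UMIs over both groups.

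Of these 490 genes, 5 (1.02%) were at least 2-fold higher in the mitotic-phase cells and 0 (0%) at least 2-fold lower. The 5 were Cks2, Hn1, Cks1b, Cenpm and H2afj, a histone H2A variant, and 4 of them were on the mitosis lists. Of the 11 list members among the 490, 9 were above 0 on the log2 scale, with a median of 0.68 (-0.21 to 1.51). Cks2 and Cks1b had few UMIs in the score-0 cells and reached the minimum of 50 through those in the mitotic-phase cells. List genes as low in the score-0 cells but with ratios near 0 were not described, so the minimum can raise this median. The pooled ratio of all 118 genes, which needs no minimum, was 0.54 (0.41 to 0.67). Over all 490 genes, 245 were above 0 and 245 below. When cells were chosen and paired anew among those with 2000 or more UMIs, only 9 pairs were found. Over these pairs 1 list gene, H2afz, was described, at 0.0061 on the log2 scale.

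Cks2, a small subunit that binds Cdk1, lies at chr13:51645232-51650660 on the plus strand (GRCm38). It had 44 UMIs in the 38 mitotic-phase cells and 12 in the paired score-0 cells, which was 675 and 183 CPM (counts scaled to equal totals of UMIs outside the 12 genes). The log2 ratio was 1.88 (0.93 to 2.94). After thinning every cell to 1000 UMIs, Cks2 had a UMI in 45% of all mitotic-phase cells, 33.1% of the 720 others and 18.4% of score-0 cells, against 71.1%, 56.8% and 26.3% without thinning. No cell type lacking the mitosis genes was present, so that no background share could be given for these percentages.

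Hn1, a relative of the fly microtubule protein Jupiter, lies at chr11:115497353-115514387 on the minus strand. It had 74 UMIs against 27, or 1135 and 413 CPM, a log2 ratio of 1.46 (0.81 to 2.15). In thinned cells it had a UMI in 52.8% of mitotic-phase cells, 35.8% of the others and 36.8% of score-0 cells, so the share in the score-0 cells was not below that in the others. Cks1b, the paralog of Cks2 that also helps to target p27 for degradation, lies at chr3:89415472-89418383 on the minus strand. It had 37 UMIs against 13, or 567 and 199 CPM, a log2 ratio of 1.51 (0.57 to 2.55). Cenpm, a subunit of the constitutive centromere network, lies at chr15:82233779-82244748 on the minus strand and had 43 UMIs against 19, or 659 and 290 CPM, a log2 ratio of 1.18 (0.37 to 2.04). The sizes moved with the cells compared, though all stayed above 0 over 13 alternatives. Cks2 ranged from 0.44 (all other cells) to 4.18 (9 deep pairs), Hn1 from 0.68 to 1.81, Cks1b from 0.34 to 1.72 and Cenpm from 0.33 to 1.65.

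The promoters of these 4 genes are shown because both late-cycle elements could be looked for in them. Each line gives the 200 bases before the first start listed for the gene by RefSeq (GRCm38.p6), read 5′ to 3′ on the strand of the gene, with TTTGAA or its reverse complement TTCAAA and CCAAT or its reverse complement ATTGG in capitals.
Cks2, chr13:51645032-51645231, plus strand: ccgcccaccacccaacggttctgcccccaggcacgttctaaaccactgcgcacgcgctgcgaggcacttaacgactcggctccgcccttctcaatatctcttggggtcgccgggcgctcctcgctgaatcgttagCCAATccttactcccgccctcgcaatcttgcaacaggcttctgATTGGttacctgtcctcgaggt
Hn1, chr11:115514394-115514593, minus strand: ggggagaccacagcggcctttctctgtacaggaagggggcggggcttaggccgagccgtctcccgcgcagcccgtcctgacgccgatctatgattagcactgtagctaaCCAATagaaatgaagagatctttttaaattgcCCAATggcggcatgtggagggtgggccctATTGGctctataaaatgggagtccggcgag
Cks1b, chr3:89418292-89418491, minus strand: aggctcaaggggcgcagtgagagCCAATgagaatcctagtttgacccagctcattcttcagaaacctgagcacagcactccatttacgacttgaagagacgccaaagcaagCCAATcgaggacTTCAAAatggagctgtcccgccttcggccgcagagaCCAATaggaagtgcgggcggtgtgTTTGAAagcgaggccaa
Cenpm, chr15:82244337-82244536, minus strand: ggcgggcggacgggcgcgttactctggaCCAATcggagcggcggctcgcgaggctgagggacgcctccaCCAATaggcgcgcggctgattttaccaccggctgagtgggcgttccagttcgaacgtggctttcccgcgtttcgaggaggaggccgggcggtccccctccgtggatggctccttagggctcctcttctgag

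All 4 windows held CCAAT, on either strand, between 2 and 3 times each. Only Cks1b held TTTGAA, once forward at 17 to 12 bases before the start and once in reverse at 77 to 72 bases. RefSeq and GENCODE place some starts differently: the RefSeq start of Cks1b lies 92 bases and that of Cenpm 412 bases inside the GENCODE gene, so that 92 bases of the Cks1b window, with both TTTGAA matches, and all 200 of the Cenpm window lie within the gene positions given here. Of all 27025 promoters of the table, taken as 250 bases before the start, 16.3% held TTTGAA and 34.5% held CCAAT on either strand, and 5.73% held both. The lists of mitosis had 98 of 118 genes matched, of which 29.6% held TTTGAA, 65.3% held CCAAT and 24.5% both. TTTAAA, a related form of the first element, was in 12.2% of them and in 12.1% of all promoters. It also occurred, without capitals, in the window printed for Hn1. Among the mitosis lists with enough genes matched, TTTGAA was most frequent in the chromosome structure list, in 58.8% of its 17 matched genes. Of these lists, the kinetochore list held it least often, in 15.4% of 26, beside 16.3% of all promoters. These motifs do not overlap, and a match is a description of letters only. Too few genes of the kinase, cyclin and S phase lists were matched (57.1%, 69.6% and 75%) for a share to be given. The matched kinase and cyclin genes are counted among the 98. Of the 8 matched kinase genes, 0 held TTTGAA and 4 held CCAAT, and of the 16 matched cyclin genes 4 and 12 did. Of the 36 matched S phase genes, 24 held CCAAT and 6 held TTTGAA, so CCAAT was frequent there too.

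**Figure D1:**
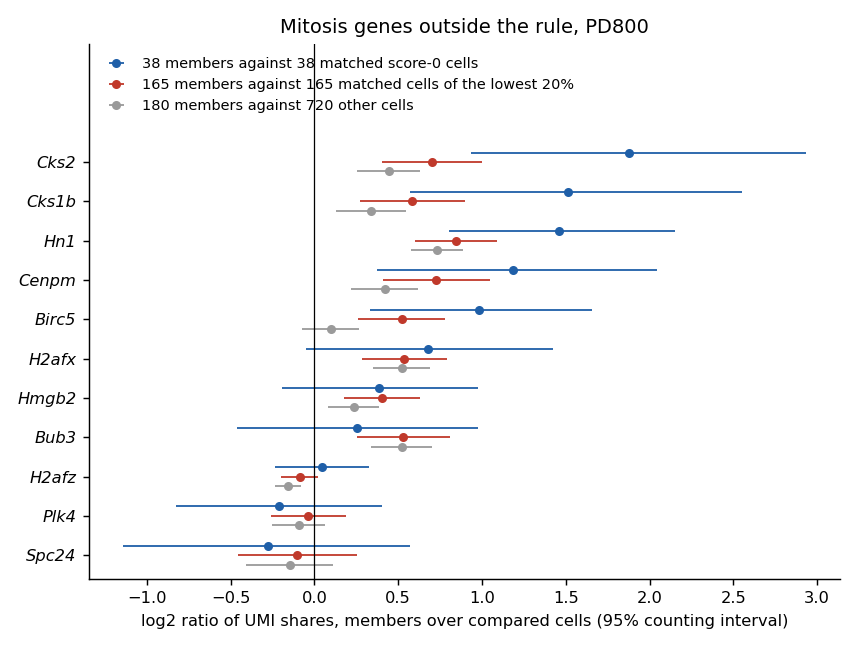
Log2 ratio of UMI shares in PD800, mitotic-phase cells over compared cells, for the 11 list genes with 50 or more UMIs over the 38 pairs. Blue points are the 38 pairs with score-0 cells, red points the 165 pairs with cells of the lowest 20% by score and grey points the 180 cells against all 720 others, with 95% counting intervals. Cks2, Cks1b, Hn1 and Cenpm lie above 0 with their intervals in all 3 comparisons, and the points of Plk4 and Spc24 lie below 0.

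The other list genes over the 38 pairs were less far apart. Birc5 (survivin), the passenger complex subunit that inhibits apoptosis, had 61 UMIs against 31, a log2 ratio of 0.98 (0.33 to 1.65). H2afx, the H2A variant phosphorylated at DNA breaks, had 43 against 27, at 0.68 (-0.05 to 1.43). Hmgb2, a chromatin-bound high mobility group protein, had 60 against 46 (0.39), and the checkpoint protein Bub3 38 against 32 (0.25). Plk4, the kinase of centriole duplication, had 44 against 51 (-0.21), and the Ndc80 complex subunit Spc24 had 23 against 28 (-0.28). Pooled by role, the log2 ratio was 0.90 (0.61 to 1.20) for cyclins, degradation and transcription, 0.82 (0.38 to 1.26) for spindle and cytokinesis, 0.78 (0.47 to 1.10) for kinetochore and checkpoint, 0.51 (0.14 to 0.88) for kinases and passenger complex and 0.18 (-0.03 to 0.39) for chromosome structure.

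Genes outside the mitosis lists were also among the highest over the 38 pairs. H2afj had 43 UMIs against 21, a log2 ratio of 1.04 (0.25 to 1.87), but only 0.08 (-0.12 to 0.27) against the 720 others. The tubulins Tuba1b and Tubb4b, subunits of the microtubule, had 110 against 65 (0.76) and 66 against 38 (0.80), whereas Tubb5 had 55 against 74 (-0.42). Reads of tubulin, histone and high mobility group genes can be shared with near-identical copies, so their values are less certain. Hmgb1 had 127 UMIs against 84, at 0.60 (0.19 to 1.02), and the myosin light chain Myl6 had 72 against 42, at 0.78 (0.21 to 1.37). Hmgn1, a nucleosome-binding protein discussed by the study for this culture, had 198 against 139, at 0.52 (0.19 to 0.84), but against all 720 other cells its ratio was -0.03 (-0.11 to 0.05), and over the 165 pairs with low-score cells it was 0.0018 (-0.12 to 0.12). Bex2 had 39 against 20 (0.97) and turned to -0.13 against the 720 others.

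At the lower end, no described gene reached 2-fold. Eif3k, a subunit of the translation initiation factor eIF3, had 29 UMIs against 58, a log2 ratio of -1.0 (-1.69 to -0.33), and the secreted phosphoprotein Spp1 had 46 against 82 (-0.83). The chaperonin subunit Cct2 had 27 against 51 (-0.91), the proteasome subunit Psma4 21 against 40 (-0.92) and the ribosomal protein Rpl34 109 against 156 (-0.51). Against the 720 other cells, Eif3k was at 0.02, Cct2 at 0.02, Psma4 at 0.03 and Rpl34 at 0.0074, so these 4 lay on the other side of 0. Anapc11, a subunit of the anaphase-promoting complex, had 45 against 75 over the pairs (-0.73) and 438 against 2060 in the wider comparison, at -0.28 (-0.43 to -0.13).

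The 38 pairs are shallow, so the same measure was taken in 2 wider comparisons that use the same mitotic-phase cells and are not independent of it. The first set the 180 mitotic-phase cells, with 527405 UMIs outside the 12 genes, against the 720 others, with 2047329. The second, chosen after the data had been seen, paired 165 mitotic-phase cells with 165 cells of the lowest 20% by score on total UMIs, with medians of 2530 and 2294 UMIs. Against the 720 others, 39 of 5069 described genes (0.769%) were at least 2-fold higher and 104 (2.05%) at least 2-fold lower. A gene near the minimum had few UMIs in the smaller group of mitotic-phase cells, where counting error alone can reach 2-fold lower. The larger number of lower genes is therefore not read as a result. The mitosis lists held 93 of the 5069 described genes. They held 6 of the 39 and 2 of the 104, the latter near their share of all described genes. With the low-score cells, 24 of 2543 genes (0.944%) were at least 2-fold higher, 9 of them on the lists, and 19 (0.747%) at least 2-fold lower, 0 of them on the lists. Few of the 2543 were list genes, so the 0 says little.

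**Figure D2:**
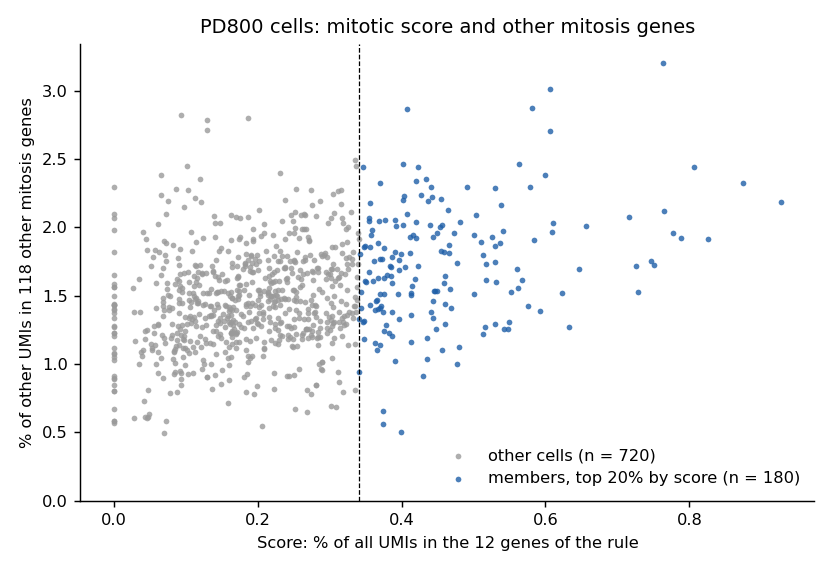
Each point is 1 of the 900 PD800 cells, with the score (percent of all UMIs in the 12 genes) on the horizontal axis and the percent of the other UMIs in the 118 other mitosis genes on the vertical axis. Blue points are the 180 mitotic-phase cells to the right of the dashed threshold and grey points the 720 others, and the blue cells lie higher (median 1.72% against 1.43%) with a wide overlap.

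Cell by cell, the share of UMIs in the 118 mitosis genes overlapped widely between the groups. It ran from 0.502% to 3.21% in the mitotic-phase cells, with a median of 1.72% and the middle of the cells between 1.43% and 2.01%. In the 720 others it ran from 0.494% to 2.82% with a median of 1.43%, and in the score-0 cells the median was 1.27%. The share exceeded the library median in 129 of 180 mitotic-phase cells (71.7%), in 321 of 720 others (44.6%) and in 10 of 38 score-0 cells (26.3%). Across the 900 cells, the score and this share had a Pearson r of 0.35 and a Spearman rho of 0.31. Within the 180 mitotic-phase cells r was 0.30. Both measures come from the same library and share its depth, and the score and the total UMIs had an r of 0.06 over all cells and of -0.27 within the mitotic-phase cells.

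By role, genes of the spindle and of the cyclins were farthest from 0 in the wider comparison. Against the 720 others, the median log2 ratio was 0.60 (0.30 to 0.75) for the 18 described genes of cyclins, degradation and transcription, 17 of them above 0, and 0.55 (0.34 to 0.75) for the 23 of spindle and cytokinesis, 20 of them above 0. It was 0.32 (-0.09 to 1.14) for 11 kinase and passenger complex genes, 0.23 (-0.02 to 0.41) for 17 chromosome structure genes and 0.17 (-0.14 to 0.42) for 25 kinetochore genes. Over all 93 described list genes, 73 were above 0 and 20 below, with a median of 0.34 (0.27 to 0.42). Over all 5069 described genes, 2404 were above 0 and 2665 below, with a median of -0.02.

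**Figure D3:**
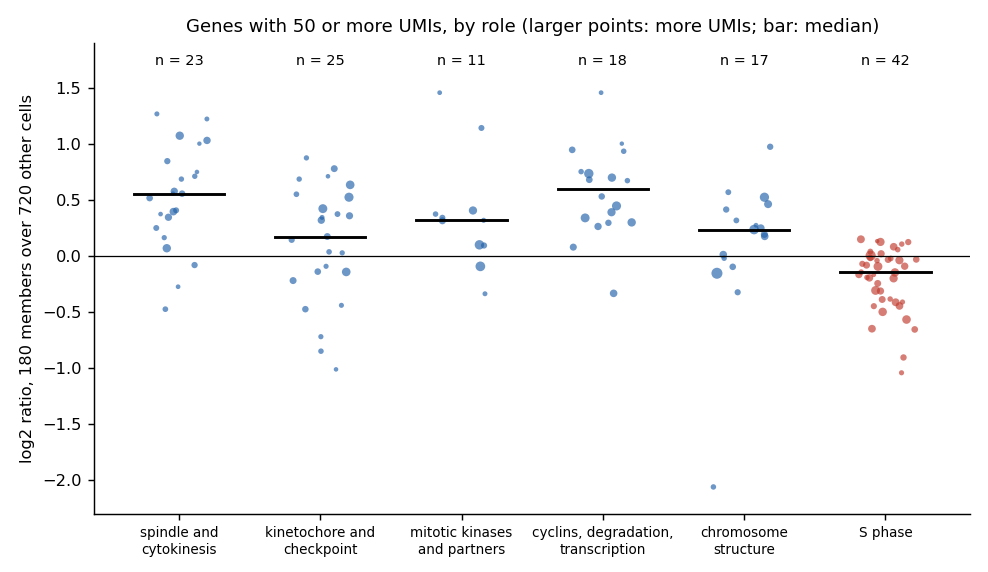
Log2 ratio of the 180 mitotic-phase cells over the 720 others, for each list gene with 50 or more UMIs, by role, with larger points for genes with more UMIs and a bar at the median. The medians of the 5 mitosis lists (blue) lie above 0, between 0.17 and 0.60, and that of the S phase list (red) lies at -0.15.

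Among spindle genes, Kpna2 and Nusap1 were over 2-fold higher with the most UMIs behind them. Kpna2 encodes an importin alpha, which binds spindle factors such as Tpx2 until they are released near chromosomes, and lies at chr11:106988629-106999541. It had 224 UMIs in the mitotic-phase cells and 414 in the 720 others, or 425 and 202 CPM, a log2 ratio of 1.07 (0.83 to 1.31). In thinned cells it had a UMI in 32.8% of mitotic-phase cells, 16.8% of others and 7.89% of score-0 cells. Nusap1, which bundles spindle microtubules and lies at chr2:119618298-119651244, had 103 UMIs against 196, at 1.03 (0.67 to 1.38). Troap and the midbody protein Cep55 had fewer UMIs, 26 against 42 (1.26, 0.50 to 2.0) and 24 against 40 (1.22, 0.43 to 1.99). The midzone kinesin Kif20a had 76 against 198 (0.58) and Prc1, which crosslinks the midzone, 45 against 119 (0.55). Kifc1, the minus-end kinesin, went the other way, with 15 against 81, at -0.48 (-1.38 to 0.33), and Psrc1 was near 0 at 0.07 (-0.21 to 0.34).

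The kinetochore list was split. Cenpa, the centromeric histone H3, had 234 UMIs against 586, a log2 ratio of 0.63 (0.41 to 0.85). Bub3 had 337 against 911, at 0.52 (0.34 to 0.70), and the cohesin protector Sgol1 25 against 53, at 0.87 (0.12 to 1.58). Cenpm was closer to 0 here than over the 38 pairs, with 273 against 792, at 0.42 (0.22 to 0.62). The outer kinetochore genes Ndc80 (0.03) and Spc24 (-0.14) and the checkpoint gene Mad2l1 (-0.22) had intervals that reached both sides of 0. Cenpn (6 UMIs against 47), Cenpu (11 against 77) and Zwilch (10 against 64) lay lowest, at -1.01, -0.85 and -0.72, and their intervals also reached above 0.

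Kinase genes included some of the highest and several near 0. Bora, the activator of Aurka towards Plk1, had 24 UMIs against 34, a log2 ratio of 1.45 (0.64 to 2.25), and the Cdk1 phosphatase Cdc25c had 42 against 74, at 1.14 (0.56 to 1.70). The passenger complex subunit Cdca8 had 152 against 446, at 0.40 (0.13 to 0.67), whereas Birc5 of the same complex had 368 against 1335, at 0.10 (-0.07 to 0.27). Aurkb, its kinase, had 55 against 172 (0.31, -0.15 to 0.76). Plk4, with 416 against 1724, was at -0.09 (-0.25 to 0.06).

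Genes of protein destruction and of the G2/M cyclins were almost all above 0. Hn1 had 474 UMIs against 1107, a log2 ratio of 0.73 (0.57 to 0.89), and Arl6ip1, an endoplasmic reticulum protein, 190 against 455 (0.70, 0.44 to 0.94). Fzr1, the partner that takes over the anaphase-promoting complex from Cdc20, had 59 against 119 (0.94, 0.47 to 1.41), and Fbxo5 (Emi1), an inhibitor of that complex, 54 against 131 (0.68, 0.19 to 1.15). Pttg1 (securin) had 146 against 433 (0.39), Cks2 319 against 910 (0.44, 0.26 to 0.63) and Cks1b 251 against 771 (0.34, 0.13 to 0.55). Ccna2 (cyclin A2), which acts from S phase into G2, was at 0.26 (-0.16 to 0.66). Mybl2 (B-Myb), a transcription factor of G2/M genes, was the only one of the 18 below 0, with 58 against 284, at -0.34 (-0.77 to 0.08).

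Among chromosome proteins, Mki67, which coats mitotic chromosomes and lies at chr7:135689784-135716361, had 48 UMIs against 95, a log2 ratio of 0.97 (0.44 to 1.49). H2afx had 381 against 1030 (0.52, 0.35 to 0.69), the condensin subunit Smc4 123 against 347 (0.46, 0.15 to 0.76) and Hmgb2 455 against 1502 (0.23, 0.08 to 0.39). H2afz, the most abundant gene of the list, had 1610 against 6963, at -0.16 (-0.23 to -0.08). The condensin subunit Ncapd2 lay lowest of all list genes, with 5 against 81, at -2.06 (-3.72 to -0.78).

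Over the 165 pairs with low-score cells the list genes were farther from 0 than against all others. Of the 2543 genes described there, 48 were list genes. Of these 48, 39 were above 0, with a median of 0.52 (0.36 to 0.65), and all 9 described spindle genes were. The median over all described genes lay between -0.10 and 0.031 under 15 alternatives, this comparison among them. Mki67 had 40 UMIs against 10, a log2 ratio of 1.93 (0.91 to 3.10), and Prc1 42 against 11, at 1.86 (0.88 to 2.97). Nusap1 had 83 against 28 (1.50), Kpna2 191 against 71 (1.36, 0.96 to 1.77) and the cyclin F gene Ccnf 36 against 14 (1.29). Mki67, Prc1 and Ccnf reached the minimum of 50 UMIs through their UMIs in the mitotic-phase cells. List genes as low in the low-score cells but with ratios near 0 were not described, so the minimum can raise the median. The pooled ratio of all 118 genes, which needs no minimum, was 0.39 (0.34 to 0.44), and 0.25 (0.22 to 0.28) against the 720 others. Tuba1c, outside the mitosis lists, had 100 against 35 (1.45). Birc5, near 0 against all others, had 310 against 206, at 0.52 (0.26 to 0.78). For the deeper genes, Cks2 was at 0.70 and Cenpm at 0.72, lower than over the 38 pairs.

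Genes of DNA replication went the other way. Of 42 described S phase genes, 32 were below 0 against the 720 others, with a median log2 ratio of -0.15 (-0.25 to -0.04). The whole list of 48 genes had 2932 UMIs in the mitotic-phase cells and 12776 in the others, 0.556% and 0.624% of UMIs, a log2 ratio of -0.17 (-0.23 to -0.11). The helicase subunit Mcm7 had 115 against 662, at -0.57 (-0.87 to -0.28), and its partner Gins2 had 54 against 329, at -0.65 (-1.09 to -0.23). Rrm2, the ribonucleotide reductase subunit, had 108 against 593 (-0.50), thymidylate synthase Tyms 168 against 808 (-0.31) and Ung, which removes uracil from DNA, 18 against 131 (-0.91). Pola1, with 698 against 2706, was at 0.00 (-0.12 to 0.12). The licensing factor Cdt1, on the list of G1 regulators, had 24 against 199, at -1.09 (-1.77 to -0.48), and over the pairs with low-score cells 18 against 52, at -1.60 (-2.46 to -0.80). Over the 38 pairs with score-0 cells, the S phase list was at 0.09 (-0.12 to 0.30), so no lower share was seen there.

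Replication-dependent histone genes, whose transcripts mostly lack poly(A) tails, had few UMIs. Together they had 306 UMIs against 1442, a log2 ratio of -0.28 (-0.46 to -0.10), and Hist1h2ap alone had 133 against 770, at -0.58. Without Hist1h2ap the list was at -0.00093 (-0.25 to 0.24), so this gene carried its value, and the other described histone genes, Hist1h2ae (0.23) and Hist1h1b (0.10), were above 0. Over the 165 pairs with low-score cells the list was at -0.10 (-0.35 to 0.15). Of 11 described G1 regulators, 9 were below 0, among them Cdk2 with 7 UMIs against 64, at -1.24 (-2.61 to -0.11), and Mycn with 33 against 217, at -0.76 (-1.34 to -0.23). The D-type cyclin Ccnd3 (-0.04) and its kinase Cdk4 (-0.02) were near 0.

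**Figure D4:**
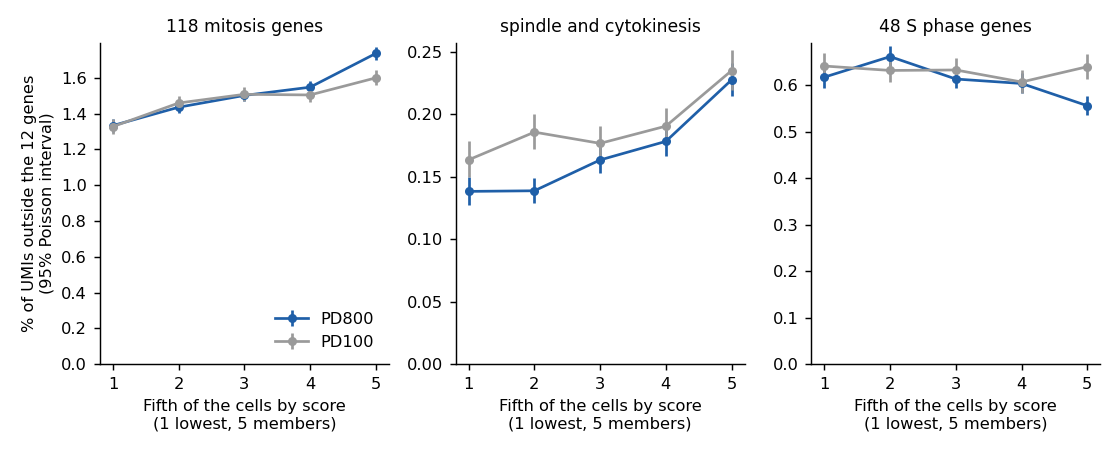
The 900 PD800 cells (blue) and 814 PD100 cells (grey) were split into 5 equal groups by score, from 1 (lowest) to 5 (the mitotic-phase cells), and each point is the percent of UMIs outside the 12 genes that fell in a list, with its 95% Poisson interval. In PD800, the mitosis genes stand at 1.33% in group 1 and 1.74% in group 5 and the S phase genes at 0.617% and 0.556%, and in PD100 the S phase genes stand at 0.641% and 0.640%.

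The shares followed the score in steps. From the lowest to the highest of 5 groups by score, the 118 mitosis genes took 1.33%, 1.44%, 1.50%, 1.55% and 1.74% of UMIs, with an interval of 1.30% to 1.37% in the lowest group and of 1.70% to 1.77% in the highest. The spindle genes took 0.138%, 0.139%, 0.163%, 0.178% and 0.227%, so that the step into the mitotic-phase cells was the largest of the 4 steps for both lists. The S phase genes took 0.617%, 0.662%, 0.613%, 0.604% and 0.556%, highest in the second group. The median of total UMIs was lowest in the first group, at 2193.5, and highest in the middle group, at 3089.

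Lists outside the cell cycle were also compared with the 720 others. The 14 described genes of naive pluripotency had a median log2 ratio of 0.07 (-0.31 to 0.34), with 9 above 0, and the 15 of core pluripotency one of -0.06 (-0.29 to 0.01), with 11 below 0. Klf5 had 69 UMIs against 169, at 0.66 (0.24 to 1.08), and Klf4, which the study follows in these cells, 139 against 427, at 0.34 (0.05 to 0.62). Nanog was at 0.11 (-0.27 to 0.47) and Pou5f1 at 0.01 (-0.20 to 0.22). The median was 0.02 for 81 ribosomal protein genes, 0.0041 for 79 nuclear genes of the respiratory chain and 0.07 for the mitochondrial genome. Gapdh, with 1883 against 6810, was at 0.10 (0.03 to 0.18). Of the tubulin list, 8 of 12 genes were above 0 with a median of 0.22, led by Tuba1c with 116 against 267, at 0.75 (0.43 to 1.07), whereas Tuba1b was at 0.01 (-0.12 to 0.13). Pooled, the endoderm markers were at 0.42 (0.09 to 0.75), with 103 UMIs against 298. Over the 38 pairs with score-0 cells, the pooled ratio was 0.40 (0.16 to 0.64) for tubulins, 0.48 (0.25 to 0.71) for high mobility group genes, 0.09 (-0.05 to 0.23) for naive and -0.27 (-0.55 to 0.01) for core pluripotency. Klf4, with 10 UMIs against 13, was at -0.37 there (-1.72 to 0.93), on the other side of 0.

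Genes of telomere maintenance bear on how the culture survived, and the ratio of their list varied with the cells compared. Against the 720 others, 13 of 20 described genes were above 0, with a median of 0.06 (-0.11 to 0.20), and the pooled ratio was 0.06 (-0.01 to 0.13). The pooled ratio was 0.16 (0.06 to 0.26) over the pairs with low-score cells and 0.29 (0.03 to 0.56) over the 38 pairs, where the histone H3.3 genes H3f3a (0.80) and H3f3b (0.49) were the 2 described members. Single genes are given against the 720 others. Daxx, which deposits histone H3.3 with Atrx, had 53 UMIs against 147, at 0.49 (0.00 to 0.95), and Atrx itself 38 against 199, at -0.43 (-0.97 to 0.07). Terf2, the shelterin protein that protects telomere ends, had 15 against 43 (0.44, -0.52 to 1.31) but only 1 UMI against 2 over the 38 pairs, and Rnaseh1, which removes RNA from RNA-DNA hybrids, 11 against 46 (-0.11, -1.21 to 0.86). The double-strand break nuclease Mre11a had 5 against 53, at -1.45 (-3.13 to -0.14). Col4a1, which the study also discusses, had 8 UMIs against 18 and was not described.

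Some of the genes farthest from 0 were on no list, and they are named here after their values were seen. Fam83d, which recruits a kinase to the spindle, had 44 UMIs against 51, a log2 ratio of 1.74 (1.13 to 2.35), the highest of the 5069. Safb2 had 32 against 42 (1.56, 0.85 to 2.26), and Reep4, which clears endoplasmic reticulum from mitotic chromosomes, 34 against 47 (1.49). At the other end, Vrk3 had 2 against 57 (-2.88) and Sart3 2 against 55 (-2.82), the lowest values of the 5069. All 5 rest on few UMIs.

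The mitotic-phase cells were spread over all 6 clusters when the 900 cells were clustered without the 12 genes. They made up 56 of 247 cells of cluster 1 (22.7%), 44 of 235 of cluster 2 (18.7%), 41 of 153 of cluster 3 (26.8%), 24 of 96 of cluster 5 (25%) and 4 of 20 of cluster 6 (20%). In cluster 4 they were 11 of 149 (7.38%, exact interval 3.74% to 12.8%), and its cells had the highest median depth, 3116 UMIs. Clusters 1 to 3 held most of the mitotic-phase cells, and within each the mitosis genes took a larger share of UMIs in them than in the other cells of the cluster, 1.96% against 1.45%, 1.63% against 1.40% and 1.66% against 1.55%. In cluster 4 the shares were 1.39% and 1.46%, a log2 ratio of -0.07 (-0.22 to 0.08). The log2 ratio was 0.10 (-0.02 to 0.21) in cluster 5 and 0.14 (-0.15 to 0.43) in cluster 6. These intervals also reached both sides of 0. With cluster 4 left out, the ratio of the mitosis genes was 0.26 on that scale (0.23 to 0.30), against 0.25 (0.22 to 0.28) over all cells. The clusters are given by number only, since they were built from the same transcripts.

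**Figure D5:**
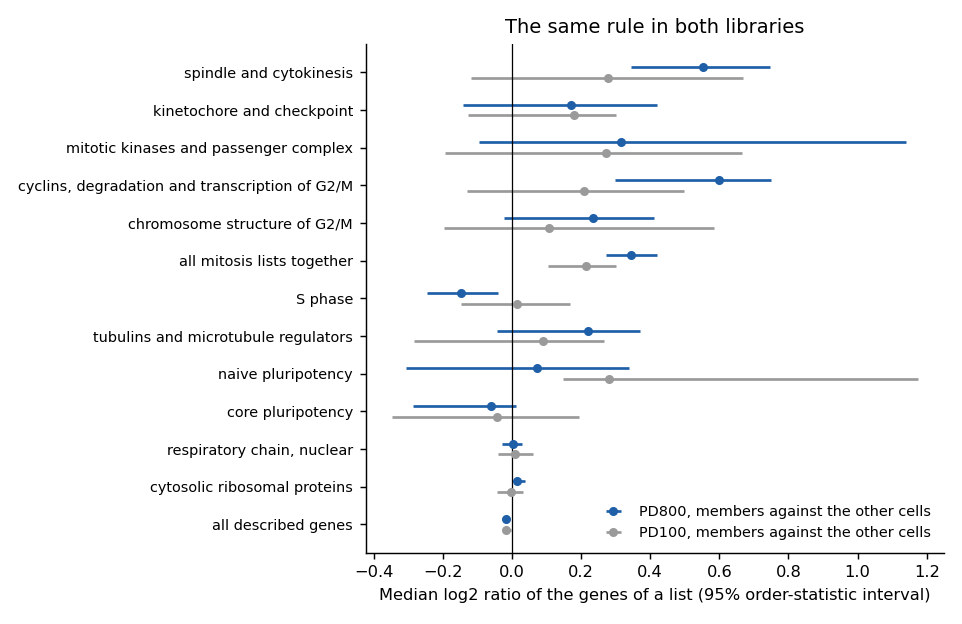
Median log2 ratio over the genes of a list, cells of the top 20% by score over all other cells of the same library, with 95% order-statistic intervals, for PD800 (blue) and PD100 (grey). The 118 mitosis genes stand at 0.34 in PD800 and 0.21 in PD100, the S phase genes at -0.15 and 0.02, and all described genes near 0 in both.

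The same rule was applied to PD100, the culture before ALT, and its values are set beside those of PD800 without a test of the difference. It took 163 of 814 cells, with a median of 2166 UMIs, and 29 cells had score 0. Against the 651 others, 48 of 4762 described genes (1.01%) were at least 2-fold higher and 120 (2.52%) at least 2-fold lower. As in PD800, many of the lower genes had few UMIs in the smaller group. The mitosis lists held 0 of the 48 and 1 of the 120. With only 86 of the 4762 genes on the lists, the 0 says little. Of these 86, 58 were above 0, with a median of 0.21 (0.11 to 0.30). Over all 4762 genes, 2293 were above 0, with a median of -0.02. Of 40 S phase genes, 21 were above 0, with a median of 0.02 (-0.15 to 0.17). Over the 152 PD100 pairs with low-score cells, 25 of 2280 genes (1.1%) were at least 2-fold higher, 6 of them on the lists. There, 36 of 49 list genes were above 0, with a median of 0.34 (0.13 to 0.47), against 1089 of all 2280 genes. Over its 29 pairs with score-0 cells, the pooled ratio of the list genes was 0.29 (0.14 to 0.45), against 0.54 (0.41 to 0.67) in PD800. The score and the share of the mitosis genes had an r of 0.18 over 814 cells.

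In PD100, Nusap1 had 65 UMIs against 141, a log2 ratio of 0.86 (0.41 to 1.29), whereas Kpna2 had 125 against 373, at 0.40 (0.09 to 0.69). Hn1 had 322 against 989, at 0.36 (0.17 to 0.54). Cks2 had 96 against 425, at -0.17 (-0.51 to 0.15), and Cks1b 195 against 801, at -0.06 (-0.30 to 0.16), so neither was above 0 in PD100. Cenpa was at 0.23 (-0.01 to 0.47), Cenpm at 0.25 (-0.04 to 0.53) and Birc5 at 0.11 (-0.13 to 0.34). The PD100 cells were shallower, with a median of 2151 UMIs against 2701.5, and the 12 genes took 0.283% of their UMIs against 0.241%.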

How the data were processed

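The authors deposited 1 table of raw counts per library, UMIs per cell barcode and gene, made with the inDrops pipeline on the GRCm38 (mm10) assembly. The labels name Scanpy, and the annotation release is not given in the sources used here. The time point in the labels gave each group. The members and lists were chosen with earlier results of these data known.

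PD800 held 1666 barcodes with 3039344 UMIs and PD100 1291 with 2073033. Barcodes with under 1000 UMIs or over 20% mitochondrial UMIs were left out, which left 900 and 814 cells. Pairs were matched on total UMIs within 15%. UMIs were summed over cells and divided by those outside the 12 genes. Ratios were described from 50 UMIs over both groups. Intervals were Poisson for sums, exact conditional (Clopper-Pearson) for ratios, exact binomial for shares and order-statistic for medians, at 95%. A gene with 0 UMIs in a group was set to 3. Cells were thinned with random seed 1. Clusters came from Louvain communities of 15 nearest neighbours on 20 principal components. The steps were tested on simulated data.

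Named genes were the 15 highest and 10 lowest by the interval end nearer to no change, list genes of mitosis, S phase and pluripotency with 50 UMIs, and genes the study discusses. Gene positions came from GENCODE M21 (GRCm38), promoters from RefSeq (GRCm38.p6). There were 14 alternatives set at the start and 1 was added after the data had been seen. Python 3.11.15 was used with NumPy 2.4.6, SciPy 1.17.1, pandas 2.3.3, Scanpy 1.11.5 (Scrublet), igraph 0.11.9, scikit-learn 1.9.0 and matplotlib 3.10.9.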

Additional observations from a re-analysis of the deposited data

Results flagged for a closer look

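Of 19 named genes described over the score-0 pairs of both libraries, 9 lay on opposite sides of 0 in PD800 and PD100, and for 2 of them both counting intervals left out 0. Over all 279 genes described in both libraries, 130 (46.6%) lay on opposite sides and 2 (0.717%) did so with both intervals, the same 2 genes. The named genes include the highest and lowest of PD800. Myl6, a myosin light chain, had a log2 ratio of 0.78 in PD800 and -0.84 (-1.55 to -0.16) in PD100, with 29 UMIs in the PD100 mitotic-phase cells and 52 in their paired score-0 cells. Npm1 (nucleophosmin), a nucleolar protein, was at -0.46 in PD800 and at 0.66 (0.23 to 1.09) in PD100, with 118 UMIs against 75. The difference between the libraries was not tested, since each time point had 1 library.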

How the results depend on the processing

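With 1 library a time point, no setting carries a test, and a ratio is limited by the UMIs of 38 shallow score-0 cells. No paired analysis was possible because each time point had 1 library without replicate numbers. The median of the mitosis lists stayed above 0 under all 15 alternatives, from 0.0061 (1 gene, 9 pairs of cells with 2000 or more UMIs) to 0.78 (the top 10% of cells, which gave 90 mitotic-phase cells). Of 585 values of named genes under alternatives, 524 fell within the interval of the reported value. Another 50 lay outside it. The rest, from 6 genes named below, lay outside it and on the other side of 0.

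Counts of genes past 2-fold moved with the UMIs behind each gene. At least 2-fold higher were 3 genes with cells of 2000 or more UMIs, 25 with the score taken from thinned cells, 120 against all score-0 cells unmatched, 39 against all other cells, 73 with a minimum of 20 UMIs, 0 with a minimum of 200, 1 with all cells thinned and 24 with the lowest 20%, against 5 reported. At least 2-fold lower were 2 with the top 10%, 3 with the top 30%, 4 with 2000 or more UMIs, 2 with at most 10% mitochondrial UMIs, 16 with the thinned score, 44 with score-0 cells unmatched, 104 against all others, 1 with scaling that kept the 12 genes, 47 with a minimum of 20, 3 with all cells thinned and 19 with the lowest 20%, against 0 reported. With 2000 or more UMIs the median of all described genes was -0.10, of ribosomal protein genes -0.082 and of the respiratory chain -0.27, and with a minimum of 200 the last was -0.29.

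Of 45 named genes, 22 had a value on the other side of 0 under at least 1 alternative. For 6 of them the interval of the reported value had left out 0. With the thinned score these were Bex2 (-0.13), Cct2 (0.011), Eif3k (0.10) and Psma4 (0.078). Against all other cells they were Bex2 (-0.13), Cct2 (0.020), Eif3k (0.015), Hmgn1 (-0.030), Psma4 (0.026) and Rpl34 (0.0074), and with the lowest 20% Bex2 (-0.29). The cause was not tested.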

Other observations

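The filter left out 766 PD800 barcodes. Of these, 276 had 2 or more UMIs of the 12 genes and 270 had 0. The 118 mitosis genes took 1.54% of UMIs in the first group and 1.52% in the second, a log2 ratio of 0.01 (-0.07 to 0.10).

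A list of 13 transcripts was taken from earlier work, where they led a PD800 cluster, and was chosen after these values had been seen. Of these transcripts, only Ppip5k1 was among the top leading genes of the clusters described above. Within the 180 mitotic-phase cells, the list had a Pearson r of -0.24 with the score (n = 180 cells of 1 library), and one of -0.06 over all 900 cells.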
